A study of Mus musculus with 6 samples.

Results

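Messenger RNA levels of 8 genes of the SUMO pathway and of PML nuclear bodies were examined in mouse embryonic stem (ES) cells that carry or lack intact Morc3. The genes were Sumo2, Sumo3, Pias1, Pias4, Senp1, Senp6, Pml and Rnf4, which were taken by symbol from the deposited RNA-seq counts. All 8 were found among the 24054 gene rows. The study examined Morc3 as a silencing factor of endogenous retroviruses and compared 3 Morc3 knock-out (ko) ES cell lines, KO27-1, KO27-2 and KO27-3, with 3 libraries of the wild-type line WT26, whose titles carry p42, p43 and p56. Both groups were feeder-independent cells cultured in serum and LIF on gelatin, and according to the study's methods the ko lines were made with Cas9. They are called ko clones 1, 2 and 3 here. All 3 control libraries carry the name of 1 line, and the labels do not say what the letter p stands for. The study describes the libraries of each group as biological replicates, while the labels do not say how they were kept apart, so the p-values measure the spread between these libraries.

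SUMO proteins are small ubiquitin-like modifiers that are joined to lysines of target proteins. An E1 enzyme activates them, and E3 ligases such as the PIAS proteins help to choose the target, whereas SENP proteases take SUMO off again. PML, itself heavily sumoylated, builds PML bodies, which are spherical nuclear structures that gather sumoylated proteins, and RNF4 is a ubiquitin ligase that recognises SUMO chains. MORC3 is a nuclear ATPase known to be a SUMO target and to localise to PML bodies.

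None of the 8 genes passed an adjusted p of 0.01 in edgeR's quasi-likelihood test, whereas 156 of 12222 tested genes did (1.28%). The study used this threshold for gene calls with another tool, DESeq2, which is an alternative here. Pml stood nearest to the threshold in edgeR's test, with an adjusted p of 0.0145. Its level, in CPM (counts relative to the TMM-scaled total of the library), was 48.6 ± 0.609 over the ko clones and 33.4 ± 4.90 over the wild-type libraries (SD, n = 3 each). In the other 7 genes the fitted difference was at most 0.19 on the log2 scale, and their 95% intervals lay between -0.29 and 0.36. Differences in RNA per cell and in the make-up of the culture cannot be told apart in such bulk libraries. With no call at adjusted p under 0.01, 4 of the 8 genes had an unadjusted p under 0.05, against 14.3% of the tested genes, and DESeq2 called 1, Pml, at the same adjusted threshold, which 254 of 14191 genes passed in that test (1.79%).

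The sense-strand gene counts came to between 10740618 and 14123131 per library. Morc3 itself was measured at 77.8, 137.9 and 134.6 CPM in ko clones 1, 2 and 3 and at 276.8, 272.0 and 302.2 CPM in p42, p43 and p56 (log2 difference -1.28, SE 0.16, adjusted p 8.4e-04 by edgeR). All 10 ES cell markers were measured in both groups and none was called, though their summed level was 6578 to 6741 CPM in ko and 6058 to 6215 CPM in wild type, without overlap. Among them Dppa5a was at 1370, 1390 and 1347 CPM in ko and at 1112, 1090 and 848 CPM in p42, p43 and p56. Its log2 difference was 0.43, with an adjusted p of 0.023 by edgeR. Like Pml it was lowest in p56, which was the lowest wild-type library in 41.0% of all tested genes. Fibroblast markers summed to 7.15 to 8.32 CPM in ko and to 11.8 to 12.7 CPM in wild type. Of the 8, only 2, Thy1 and Pdgfrb, passed the filter on low counts, and 1, Thy1, was called. Thy1 made up most of the sum in each library, with 5.08, 4.59 and 4.72 CPM in ko clones 1, 2 and 3. In p42, p43 and p56 it was at 8.18, 8.82 and 9.11 CPM (log2 difference -0.86, adjusted p 0.0064 by edgeR). Postn and Dcn had no count in any library. Markers of primitive endoderm, trophoblast and early lineages summed to at most 3.94 CPM in each library. The part of these markers in the results below was not tested. The wild-type library p56 stood apart on chromosome 14, where the median log2 deviation of its genes from the mean of the 6 libraries was 0.35. None of the 8 genes lies there, and on their chromosomes, 5, 9, 10, 11 and 15, the median deviation of p56 lay between -0.04 and 0.01. Results without p56 are given for Sumo3, Senp6, Pml, Zmiz1 and Atrx.

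The modifiers came first. Sumo2 (chromosome 11, 115523102 to 115536276, GRCm38, minus strand) and Sumo3 (chromosome 10, 77606097 to 77618331, plus strand) encode closely related proteins that form SUMO chains. Their coding sequences in the GENCODE M21 annotation were identical at 234 of 282 aligned bases (83.0%). Sumo2 also has processed copies in the genome. Of its 236 coding windows of 50 bases, the length of the reads, 236 (100%) were found letter for letter in at least 1 of 11 annotated pseudogenes, and over all its annotated transcripts 349 of 1814 windows (19.2%) had an exact match in another gene. The following 60-base coding stretch is shown because it makes plain both points, the likeness of the 2 modifiers and the exact copy outside the gene. It covers coding bases 149 to 208 of Sumo2 and 155 to 214 of Sumo3, and capitals mark letters that differ from Sumo2.
Sumo2: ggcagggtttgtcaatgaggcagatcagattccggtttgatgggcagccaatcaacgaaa
Sumo3: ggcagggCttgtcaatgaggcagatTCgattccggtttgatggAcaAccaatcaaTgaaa
Gm10241: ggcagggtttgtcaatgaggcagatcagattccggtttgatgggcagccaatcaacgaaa
In this stretch Sumo3 differed from Sumo2 at 6 of 60 letters. The pseudogene Gm10241 on chromosome 16 held the whole stretch without a difference, as did 4 more pseudogenes. None of the 11 pseudogenes has a row in the deposited files. STAR counted only read pairs that map to 1 place, and a 50-base read from the coding part of Sumo2 has a further exact place in the genome, so such a pair is counted only where the mate tells the places apart. The Sumo2 values below may therefore be too low, by an amount the counts do not show. Sumo3 shared 8.70% of its windows with other genes, most of them with Gm49325, which overlaps it on the same strand and has no row in the files.

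Sumo2 was measured at 21.9, 22.1 and 19.7 CPM in ko clones 1, 2 and 3 and at 19.99, 19.3 and 19.5 CPM in p42, p43 and p56. Clone 3 lay within the wild-type range, so the groups overlapped. The log2 difference of ko over wild type was 0.12 (SE 0.10, 95% interval -0.09 to 0.33), with an adjusted p of 0.66. At 1507 counts over the 6 libraries, Sumo2 was among the thinly counted genes of the set, and the copies limit what this value says about the gene.

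Sumo3 reached 215.7, 257.3 and 260.1 CPM in ko clones 1, 2 and 3, and 206.4, 214.4 and 221.1 CPM in p42, p43 and p56. Clones 2 and 3 were above every wild-type library, whereas clone 1 lay between p43 and p56. The fitted log2 difference was 0.19 (SE 0.08, 95% interval 0.02 to 0.36) with an adjusted p of 0.27. Without clone 1 it was 0.28, with an adjusted p of 0.053 by edgeR, and without p56 it was 0.22, with an adjusted p of 0.091. Leaving out clone 2, clone 3 or p42 instead gave 0.15, 0.15 and 0.17, with adjusted p of 0.65, 0.67 and 0.51 by edgeR. Without p43 it was 0.19, with an adjusted p of 0.40.

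**Figure D1:**
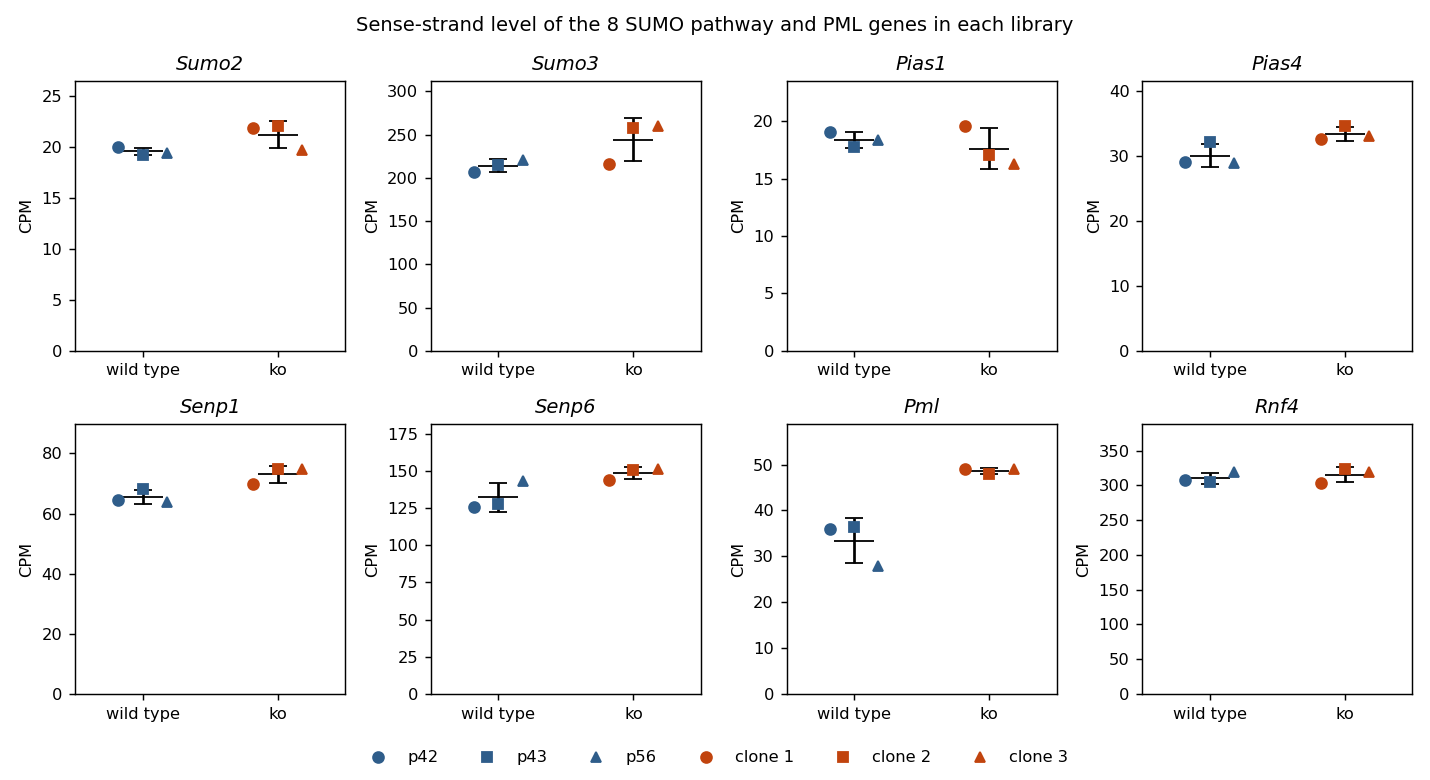
Sense-strand CPM (vertical axes, from 0) of the 8 genes in each wild-type (blue) and ko (red) library; horizontal bars give the mean and whiskers the SD of 3 libraries. The 3 ko libraries lie above all wild-type libraries for Pml, Senp1, Senp6 and Pias4, with the widest gap for Pml.

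PIAS1 and PIAS4 are E3 ligases of the same family, named as protein inhibitors of activated STAT. Pias1 (chromosome 9, 62878368 to 62987924, minus strand) was measured at 19.6, 17.0 and 16.2 CPM in ko clones 1, 2 and 3 and at 19.0, 17.7 and 18.4 CPM in p42, p43 and p56. The ko clones spread over both sides of the wild-type range. Its log2 difference was -0.06 (SE 0.11, 95% interval -0.29 to 0.17) with an adjusted p of 0.86, and it was the only one of the 8 genes with a negative value.

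Pias4 (chromosome 10, 81153266 to 81167923, minus strand) gave 32.5, 34.6 and 33.0 CPM in ko clones 1, 2 and 3 and 29.1, 32.1 and 29.0 CPM in p42, p43 and p56. Its groups did not overlap, though clone 1 and p43 lay close together. Its log2 difference was 0.15 (SE 0.08, 95% interval -0.03 to 0.34), with an adjusted p of 0.46. The difference between the 2 PIAS genes in their response was not tested.

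SENP1 removes SUMO from many targets and matures SUMO precursors, whereas SENP6 shortens SUMO chains. Senp1 (chromosome 15, 98038744 to 98093744, minus strand) was measured at 69.9, 74.8 and 74.7 CPM in ko clones 1, 2 and 3 and at 64.6, 68.3 and 63.9 CPM in p42, p43 and p56. The lowest ko library, clone 1, was just above the highest wild-type library. The log2 difference was 0.16 (SE 0.07, 95% interval 0.01 to 0.30) and the adjusted p 0.32.

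Senp6 (chromosome 9, 80066903 to 80144953, plus strand) reached 143.8, 150.5 and 151.2 CPM in the ko clones and 125.4, 127.5 and 143.5 CPM in p42, p43 and p56. The groups did not overlap, but p56 lay just below clone 1, while p42 and p43 lay well below. The log2 difference was 0.17 (SE 0.07, 95% interval 0.02 to 0.32) with an adjusted p of 0.28. Without p56 the log2 difference was 0.23 and the adjusted p 0.028 by edgeR, still above the threshold. This was the lowest adjusted p of Senp6 in 13 alternative settings. The highest was 0.61 by edgeR, without clone 3, where the log2 difference was 0.16. DESeq2 gave an adjusted p of 0.46.

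Rnf4 (chromosome 5, 34336289 to 34355629, plus strand), the ligase that links SUMO chains to ubiquitin, was the most highly counted of the 8 genes and the nearest to no difference. It was measured at 302.7, 323.2 and 319.4 CPM in the ko clones and at 307.2, 304.3 and 319.4 CPM in p42, p43 and p56. The ranges of the groups overlapped along nearly their whole length. The log2 difference was 0.02 (SE 0.06) and its 95% interval of -0.10 to 0.15 corresponds to a change in level of between -6.89% and 10.8%. Its sign turned to negative with plain library-size scaling.

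Pml (chromosome 9, 58218076 to 58249786, minus strand) encodes the scaffold of the bodies. It was measured at 49.0, 47.9 and 49.0 CPM in ko clones 1, 2 and 3 and at 36.1, 36.5 and 27.8 CPM in p42, p43 and p56. The ko clones lay close to each other and above every wild-type library, p42 and p43 were close together, and p56 stood below both. The log2 difference was 0.54 (SE 0.10, 95% interval 0.32 to 0.76), a level 45.2% above wild type with an interval of 24.4% to 69.5%. Its adjusted p of 0.0145 by edgeR was at rank 181 of the 12222 tested genes, so that it passed a threshold of 0.05, as did 331 genes (2.71%), but not that of 0.01. It was the only one of the 8 to do so.

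The Pml value depended on p56. The SD of log2 CPM of Pml was 0.22 over the wild-type libraries, against a median of 0.12 over tested genes, and 0.02 over the ko clones. Without p56 the log2 difference was smaller, 0.42, and the adjusted p was 0.0010 by edgeR, in a fit that called 3.13% of its tested genes. Pml was also called by DESeq2 (0.54, adjusted p 4.4e-04) and by edgeR with no filter on low counts (0.53, adjusted p 0.0017), where 1.63% of the tested genes were called. In the other 10 of 13 alternative settings its adjusted p was between 0.011 and 0.099, with the highest values when a ko clone was left out. The direction was the same in all 13, and the log2 difference was between 0.42 and 0.61.

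**Figure D2:**
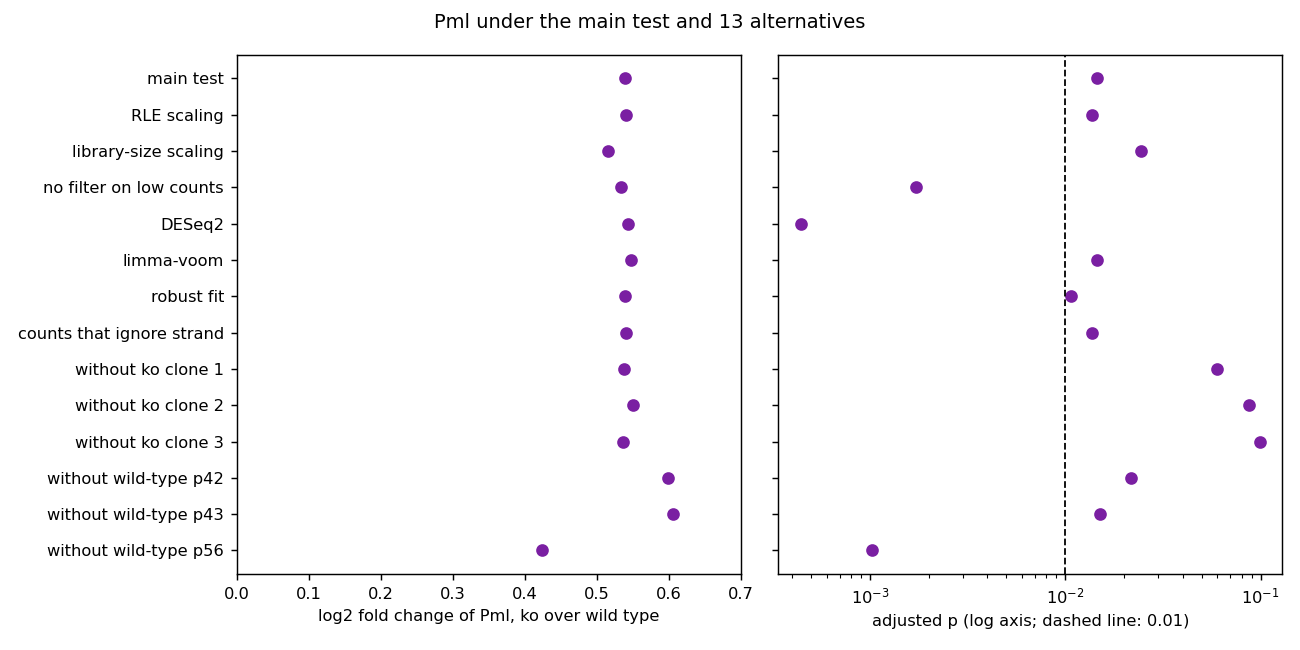
Log2 fold change of Pml, ko over wild type (left), and its adjusted p on a log axis (right) for the main test and 13 alternatives; the dashed line marks 0.01. The fold change stays between 0.42 and 0.61, and 3 alternatives (no filter, DESeq2, without p56) fall on the called side of the line.

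The 250 bases before the RefSeq start of Pml are shown because Pml had the largest difference of the set, with capitals for the letters of GC boxes (GGGCGG on either strand), the only one of 5 motifs searched that was found there (chr9:58249787-58250036, minus strand, GRCm38.p6).
Pml promoter: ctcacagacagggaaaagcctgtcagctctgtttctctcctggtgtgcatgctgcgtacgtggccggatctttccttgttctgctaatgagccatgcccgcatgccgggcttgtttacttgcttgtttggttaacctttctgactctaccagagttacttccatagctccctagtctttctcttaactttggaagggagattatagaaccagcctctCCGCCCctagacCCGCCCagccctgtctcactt
The 2 matches began 33 and 21 bases before the start. The same letters were present in 35.7% of 32851 RefSeq promoter windows of 300 bases, 250 before and 50 after the start. The letters CCAAT (37.4% of windows), TATAAA (13.6%), GAAANNGAA, a core of interferon response elements (8.56%), and TTCNNNGAA, the palindrome of STAT sites (8.30%), were not found in the Pml window on either strand. A promoter entry was found for 7 of the 8 genes, with 12 windows in all. Neither the interferon letters, the STAT letters nor TATAAA were present in any of the 12. Some of the 12 are windows of the same gene that overlap. With shares this low over all windows, the lack of a match in so few says little. The GC content of the Pml window was 53.7%, close to the median of 52.7% over all windows, and that of the Sumo2 window was 76.3%.

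The start of Stoml1, on the opposite strand, lies 3.4 kb upstream of the Pml start. Stoml1 was at 30.9 CPM in ko and 26.5 CPM in wild type, with a log2 difference of 0.22 and an adjusted p of 0.32. Only Loxl1 (-0.63, adjusted p 0.47) and Islr2 (0.56, adjusted p 0.39), both under 4 CPM, were also tested among genes that start within 200 kb of Pml, and none of the 3 neighbours was called. These neighbours were looked at after the Pml value was known.

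The 5 genes outside the lists whose pattern over the 6 libraries was most like that of Pml were Cdh3, Slc28a1, Anxa2, Bambi and Tcfl5. Likeness was measured as the root mean square difference of log2 CPM centred on each gene's mean, and came to 0.04 for Cdh3 and to 0.06 for the other 4. Cdh3, which encodes P-cadherin, was measured at 35.0, 33.1 and 35.5 CPM in ko and at 26.4, 25.7 and 18.8 CPM in p42, p43 and p56. Each of the 5 was lowest in p56, which follows from their choice by likeness to Pml over the same libraries and is no separate result. None was called by edgeR (adjusted p 0.0145 for Slc28a1 to 0.14 for Anxa2).

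Across the set, 7 of the 8 fitted log2 differences were positive, with a median of 0.15, against -0.00010 over all tested genes. Of all tested genes, 6108 had a positive and 6114 a negative value. In 4 of the 8 genes the 3 ko libraries did not overlap the 3 wild-type libraries, a pattern that 19.9% of all tested genes had. All 4 of these, Pml, Senp1, Senp6 and Pias4, were higher in ko. The gap was narrow for Senp6 (143.5 CPM in p56, 143.8 CPM in clone 1) and for Pias4 (32.1 CPM in p43, 32.5 CPM in clone 1). Clone 1 was the lowest of the 3 ko libraries in 5 of the 8 genes, as it was in 10 of 19 other SUMO pathway genes, in 8 of 12 PML body genes and in 37.4% of all tested genes. Reads on the opposite strand made up between 0.0334% (Pml) and 0.255% (Pias4) of the strand-separated counts of these genes, and all counts above come from the sense strand.

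All of 19 further genes of the SUMO pathway passed the filter on low counts. None was called by edgeR at adjusted p under 0.01, against 1.28% of all tested genes. An unadjusted p under 0.05 by edgeR was found for 2 of the 19, against 14.3% of all tested genes. DESeq2 called none of the 19 genes, against 1.79% of all genes it tested. Their median log2 difference was 0.06, with 13 positive and 6 negative values, beside 6108 positive and 6114 negative values over all tested genes. The E1 subunits Sae1 (0.07) and Uba2 (0.04) were close to 0. Among E3 ligases the values ran from -0.05 for Zmiz1 to 0.26 for Zmiz2, both of which had group means under 8 CPM. Zmiz1 lies on chromosome 14, where p56 stood apart, and its value was 0.09 without p56. With 155 counts over the 6 libraries its SE was 0.26, so this move is smaller than its SE. The part of the chromosome in it was not tested. Topors, a ligase for both SUMO and ubiquitin, gave 0.20 with an adjusted p of 0.20. In between lay Pias2 (0.01), Pias3 (0.02), Nsmce2 (-0.0017), Zfp451 (0.08) and Ranbp2 (0.08).

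Among the proteases, Senp2 (0.18, adjusted p 0.30) and Desi2 (0.14, adjusted p 0.36) had values like those of Senp1 and Senp6. Senp3 (-0.03), Senp5 (-0.05) and Senp7 (-0.01) were slightly negative, and Desi1 (0.08) and Uspl1 (0.06) slightly positive. The second SUMO-targeted ubiquitin ligase, Rnf111, gave -0.03, and Rangap1, the classical SUMO target at nuclear pores, gave 0.08. The ko and wild-type libraries did not overlap for Topors and Desi2, 2 of the 19 genes, against 19.9% of all tested genes.

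Of 13 other genes whose products are found in PML bodies, 12 were tested and none was called by edgeR. DESeq2 called 1, against 1.79% of all genes it tested, and 1 had an unadjusted p under 0.05 by edgeR, against 14.3% of all tested genes. Both were Atrx, which encodes a chromatin remodeller that deposits histone H3.3 together with Daxx. It was measured at 504, 529 and 563 CPM in the ko clones and at 409, 407 and 474 CPM in p42, p43 and p56, so the groups did not overlap. Ko over wild type gave a log2 difference of 0.31 (SE 0.07, 95% interval 0.15 to 0.47) with an adjusted p of 0.047 by edgeR and 0.0079 by DESeq2. Without p56, the highest of its wild-type libraries, it was 0.38 with an adjusted p of 3.2e-04.

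The partner of Atrx, Daxx, was at 103 ± 5.02 CPM in ko and 104 ± 7.82 CPM in wild type, a log2 difference of -0.02 with a 95% interval of -0.18 to 0.14. The values for the H3.3 chaperone genes Hira (0.08), Ubn1 (0.04), Cabin1 (0.07) and Asf1a (-0.0016) were small. So were those of Hipk1 (0.02), Casp8ap2 (0.04), Trp53 (0.02) and Usp7 (0.10), the last of which had no overlap between the groups. Atrx and Usp7 were the 2 of 12 tested PML body genes without overlap, against 19.9% of all tested genes. Blm and Hipk2 gave 0.12 and 0.23, with Hipk2 near 6 CPM. Sp100, which encodes another major PML body protein, had no count in any of the 6 libraries.

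**Figure D3:**
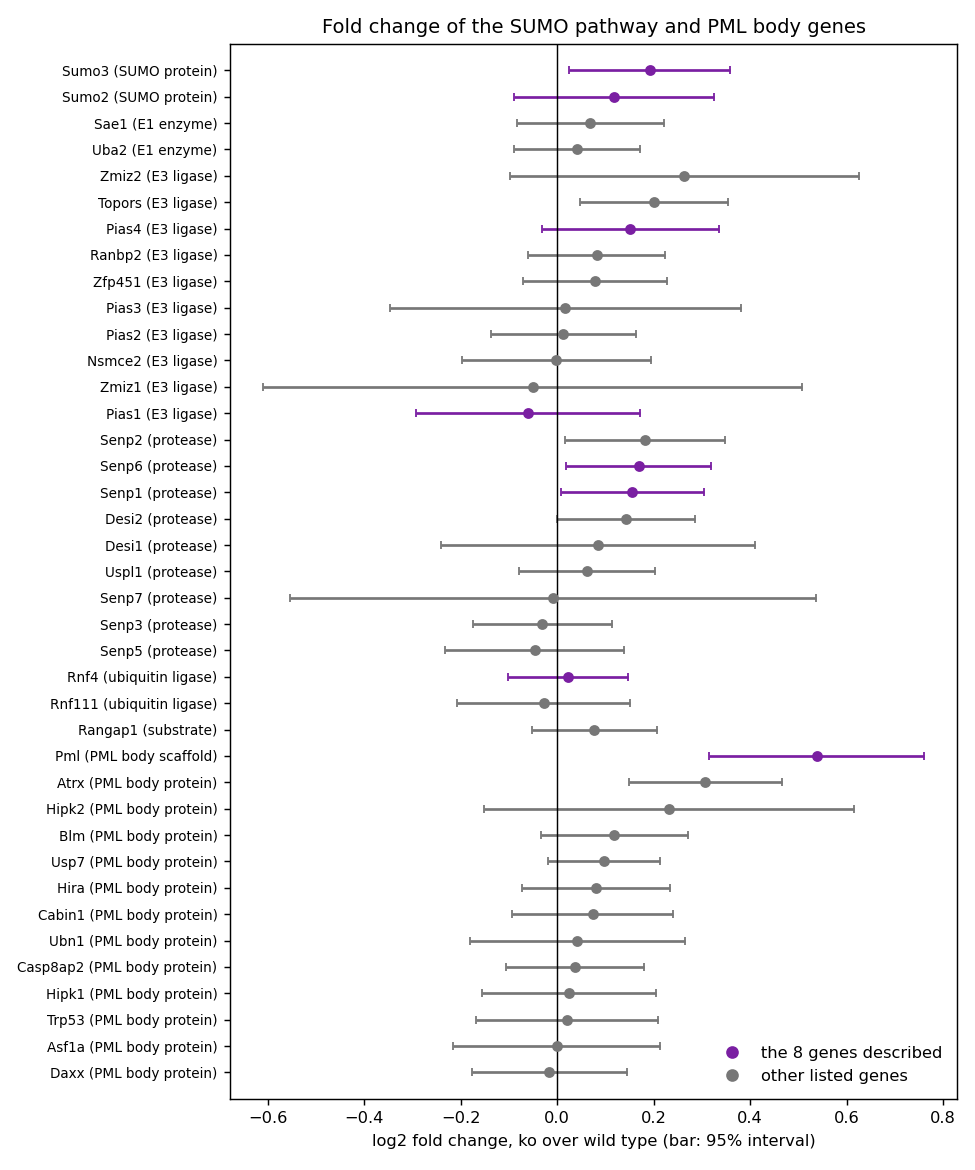
Log2 fold change (ko over wild type, points) with 95% intervals (bars) of the 8 genes (purple) and of the other tested SUMO pathway and PML body genes (grey), ordered by role. Pml, at 0.54, and Atrx, at 0.31, have the intervals farthest above 0, and most other intervals include 0.

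Levels were compared between genes as CPM per kb of exon, over the union of annotated exons. In wild type the order was Sumo3 (58.5 ± 2.02; SD, n = 3), Rnf4 (42.6 ± 1.10), Senp6 (18.8 ± 1.41), Sumo2 (11.3 ± 0.218), Pias4 (8.13 ± 0.474), Pml (6.004 ± 0.879), Senp1 (5.53 ± 0.200) and Pias1 (2.69 ± 0.0976). Over the 6 libraries the ranges of Pias4 and Pml overlapped, and so did those of Pml and Senp1, whereas all other neighbours in this order were separate. In ko the mean of Pml was 8.73 ± 0.109, beside 9.04 ± 0.293 for Pias4 and 6.16 ± 0.237 for Senp1. The level of Sumo2 may be too low for the reason given above, and the union of exons counts alternative exons that ES cells may not use.

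**Figure D4:**
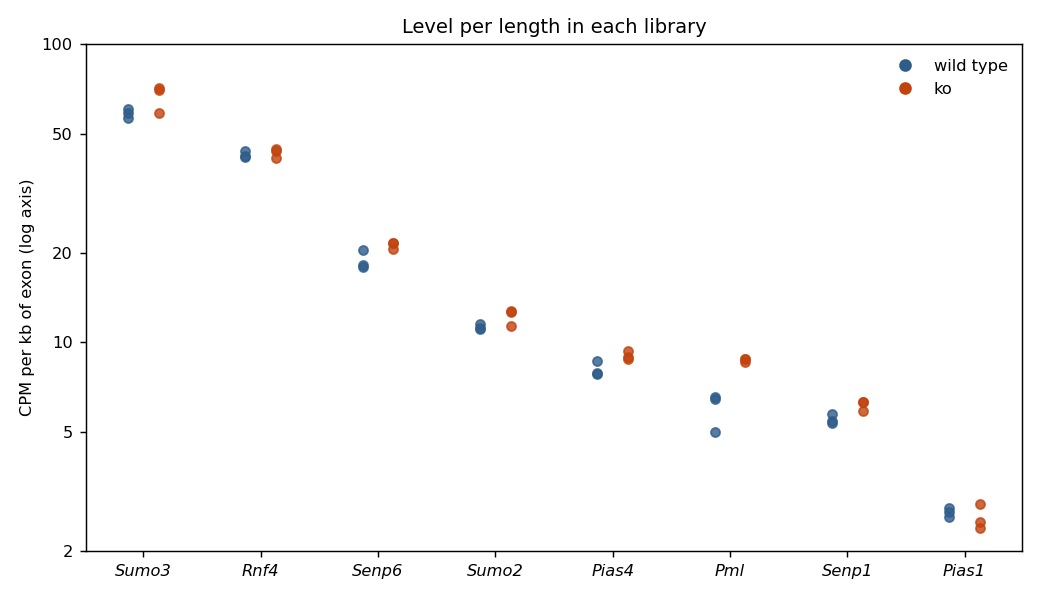
CPM per kb of exon (vertical, log axis) of the 8 genes in each wild-type (blue) and ko (red) library, in the order of the wild-type mean. Levels run from 58.5 for Sumo3 to 2.69 for Pias1 in wild type, and Pml is the gene whose ko points lie farthest above its wild-type points.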

How the data were processed

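Total RNA of 6 libraries (3 ko, 3 wild type) was depleted of ribosomal RNA, prepared strand-specifically and sequenced as 50 bp paired-end reads. Per the labels, the authors aligned reads to mm10 with STAR, which counted read pairs that map to 1 place and overlap 1 gene; the deposited values are raw counts per gene without normalization. The gene annotation behind the counts is not given in the sources used here. The sense-strand column was used, and the lines for unassigned reads were left out. Counts were tested with edgeR 4.0.16 in R 4.3.3 (quasi-likelihood test, two-sided, TMM, filterByExpr at its defaults, 10 counts and 15 in total, group as the only term), with Benjamini-Hochberg adjustment over 12222 genes and calls at adjusted p under 0.01. DESeq2 1.42.0 and limma-voom (limma 3.58.1) were alternatives. CPM were computed from TMM-scaled library sizes. The SE is the size of the log2 change over the root of its F statistic, and intervals are 95% intervals. Positions, exon lengths and 50-base windows came from GENCODE M21 (GRCm38, which mm10 names), promoters from RefSeq (GRCm38.p6). The script was tested on simulated data. All 8 genes, called list genes, Morc3 and the 5 genes most like the gene with the smallest p were to be named. Genes and lists were chosen with earlier results of these data known. Some genes of the lists, and the shares of the SUMO paralogues among their reads, are not reported here.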

Additional observations from a re-analysis of the deposited data

How the results depend on the processing

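Against 156 genes called between ko and wild type, 286 were called with no filter on low counts, 254 with DESeq2 and 331 at adjusted p under 0.05. Leaving out 1 library gave between 72 (without ko clone 3) and 385 (without p56). Of the 8 genes none was called in the main test, and 1, Pml, was called with no filter, with DESeq2 and at adjusted p under 0.05; leaving out 1 library gave 0 to 1, the 1 being without p56. Among the PML body genes 1, Atrx, was called instead of 0 with DESeq2 and at adjusted p under 0.05, and leaving out 1 library gave 0 to 1, again without p56. No other SUMO pathway gene was called in any setting. Rnf4 turned to a log2 difference of -0.00038 with library-size scaling. The other 7 genes kept their direction in all 13 settings. Among the other SUMO pathway genes, Pias2, Pias3, Nsmce2, Zmiz1, Senp3, Senp7, Desi1 and Rnf111 changed sign in at least 1 setting. Morc3 had an adjusted p of 0.018 under the robust fit and was called in the other 12. The causes were not tested. No paired analysis was possible because no number in the titles occurs in both groups.

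Pias1, Sumo2 and Pias4 had between 1338 and 2343 counts over the 6 libraries, which limits their precision. The 95% intervals of the 8 genes cover the spread between libraries only.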
